A study of Homo sapiens with 6 samples.

Results

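The 49 genes described here encode the eukaryotic translation initiation factors of NALM6, a human B-cell acute lymphoblastic leukemia line, and were read from RNA-SEQ of cells treated with THZ1 or with its solvent DMSO. The members were every gene of the 16730 in the deposited expression table whose symbol starts with EIF1 to EIF6, which gave 56 symbols. Left out were the 4 eIF2 alpha kinases (EIF2AK1 to EIF2AK4) and the noncoding genes EIF1AX-AS1, EIF2AK3-DT and EIF3J-DT. As the choice was by symbol, the members also include binding partners of EIF4E (EIF4EBP1, EIF4EBP2, EIF4EBP3 and EIF4ENIF1) and EIF4A3 of the exon junction complex. All 49 are called initiation factors below. THZ1 is a covalent inhibitor of CDK7, the kinase of the general transcription factor TFIIH. Cells of this single line received 500 nM THZ1 or DMSO for 24 h, with 3 libraries per treatment. The labels do not say whether these came from separate cultures, and the methods speak of independent experiments for the study in general without naming these libraries, so the p-values measure the spread between these libraries, which may be technical. In bulk RNA, fewer cells of a kind and less RNA per cell cannot be told apart.

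The DMSO-treated libraries held 11015480 to 11164840 counts and the THZ1-treated libraries 7876402 to 8314306, of which 67744 to 126785 lay on initiation factors. Genes with at least 1 count numbered 21414 to 21668 with DMSO and 24276 to 24486 with THZ1. All 7 markers of B-cell precursors that were examined were detected in every library. Of the 7 markers of other cell types, CD3E, CD3D, HBB and EPCAM lay at or below 0.277 CPM (counts of a gene relative to the scaled library size) in every library, CD14 read 0.579 to 0.738 CPM with DMSO and 7.63 to 9.83 CPM with THZ1, and LYZ and ALB stayed at or below 12.3 CPM. The part of other cells in the results below was not tested.

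Translation of most cellular mRNAs starts when the small ribosomal subunit, carrying initiator tRNA bound to eIF2 and GTP, is brought to the 5′ cap by eIF3 and the eIF4F complex and scans to a start codon. eIF1 and eIF1A keep the scanning subunit open and strict about the codon it accepts, eIF5 triggers GTP hydrolysis, eIF2B recharges eIF2, and eIF5B joins the large subunit. Control is exerted mainly on eIF2, whose alpha subunit is phosphorylated under stress, and on the cap-binding protein eIF4E, which the 4E-BPs hold back when mTORC1 is inactive, and eIF4F activity is often raised in leukemias and other cancers.

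Most of the initiation factors were lower after THZ1, relative to the scaling of the libraries. Of the 49 members, all of which passed the filter on low counts, 28 (57.1%) were lower, 11 (22.4%) were higher and 10 did not pass the test at an adjusted p below 0.05 (edgeR quasi-likelihood test, p-values adjusted by the Benjamini-Hochberg method over 16622 genes). By the same rule 41.1% of all genes tested were lower and 43.5% higher, and among the 11929 protein-coding genes 47.6% were lower and 36.3% higher. A fold of at least 1.5 on the log2 scale was reached by 11 members that fell, among them EIF4E3, EIF4EBP1, EIF3J, EIF3M, EIF4EBP2, EIF5B, EIF2A, EIF4A3, EIF2B5 and EIF4E (22.4%, against 12.9% of all genes tested and 13.3% of protein-coding genes) and by 2 that rose, EIF4A1 and EIF4EBP3, against 24.6% of all genes tested and 15.3% of protein-coding genes. EIF4E3, EIF4EBP3 and EIF3CL reached the filter's level in all libraries of only the treatment where they were higher, so the filter itself favoured a difference. Without them 9 of 46 members were higher and 27 lower, 1 and 10 of them by at least 1.5 log2. That 1 is EIF4A1, whose value is uncertain because other genes share its sequence. The median log2 fold change was -0.64 over the members (-0.65 without EIF4E3, EIF4EBP3 and EIF3CL), with quartiles at -1.33 and 0.09. It was 0.03 over all genes tested and -0.20 over protein-coding genes.

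**Figure D1:**
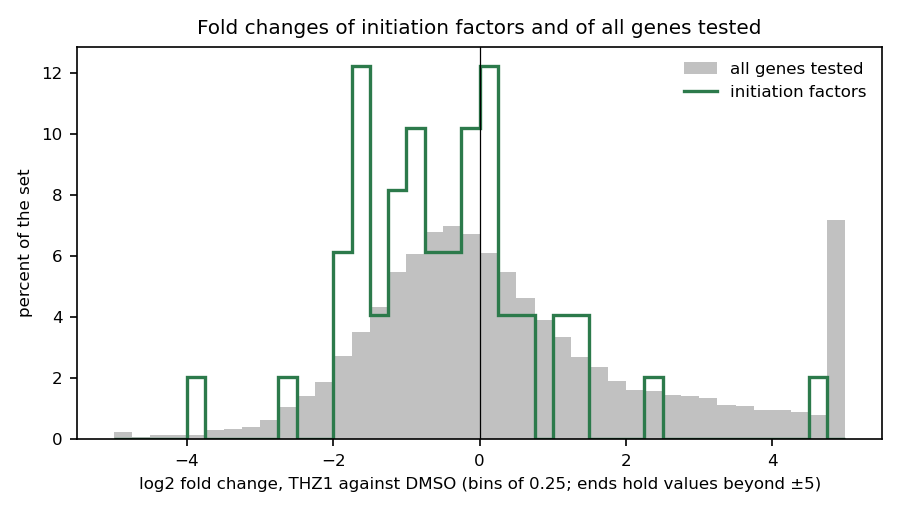
Distribution of the log2 fold change (THZ1 over DMSO, x axis) as percent of each set (y axis) for the 49 initiation factors (green line) and for all 16622 genes tested (grey bars, end bins holding values beyond the axis). The members lie mostly left of 0, with a median of -0.64 against 0.03 for all genes tested.

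The CPM ranges of both treatments did not overlap for 39 of the 49 members (79.6%), against 84.7% of all genes tested. Changes were read relative to TMM (trimmed mean of M values) scaling. Like the other scalings used here, TMM gives levels relative to other genes, and amounts of mRNA per cell were not measured. Other scalings moved the median of all genes by 0.19 (upper quartile factors) and -0.25 (library sizes alone). Under these the members split into 16 higher and 25 lower, and into 8 higher and 36 lower. The sign of the fold change differed between scalings for 11 members: EIF1AD, EIF2B2, EIF2B4, EIF3C, EIF3D, EIF3H, EIF3I, EIF4A2, EIF4H, EIF5 and EIF5A. Only EIF1AD and EIF4A2 among these 11 passed the test. Without any scaling between genes, the members took 1.13%, 1.13% and 1.14% of all counts in the DMSO-treated libraries and 0.911%, 0.86% and 0.871% in the THZ1-treated libraries.

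**Figure D2:**
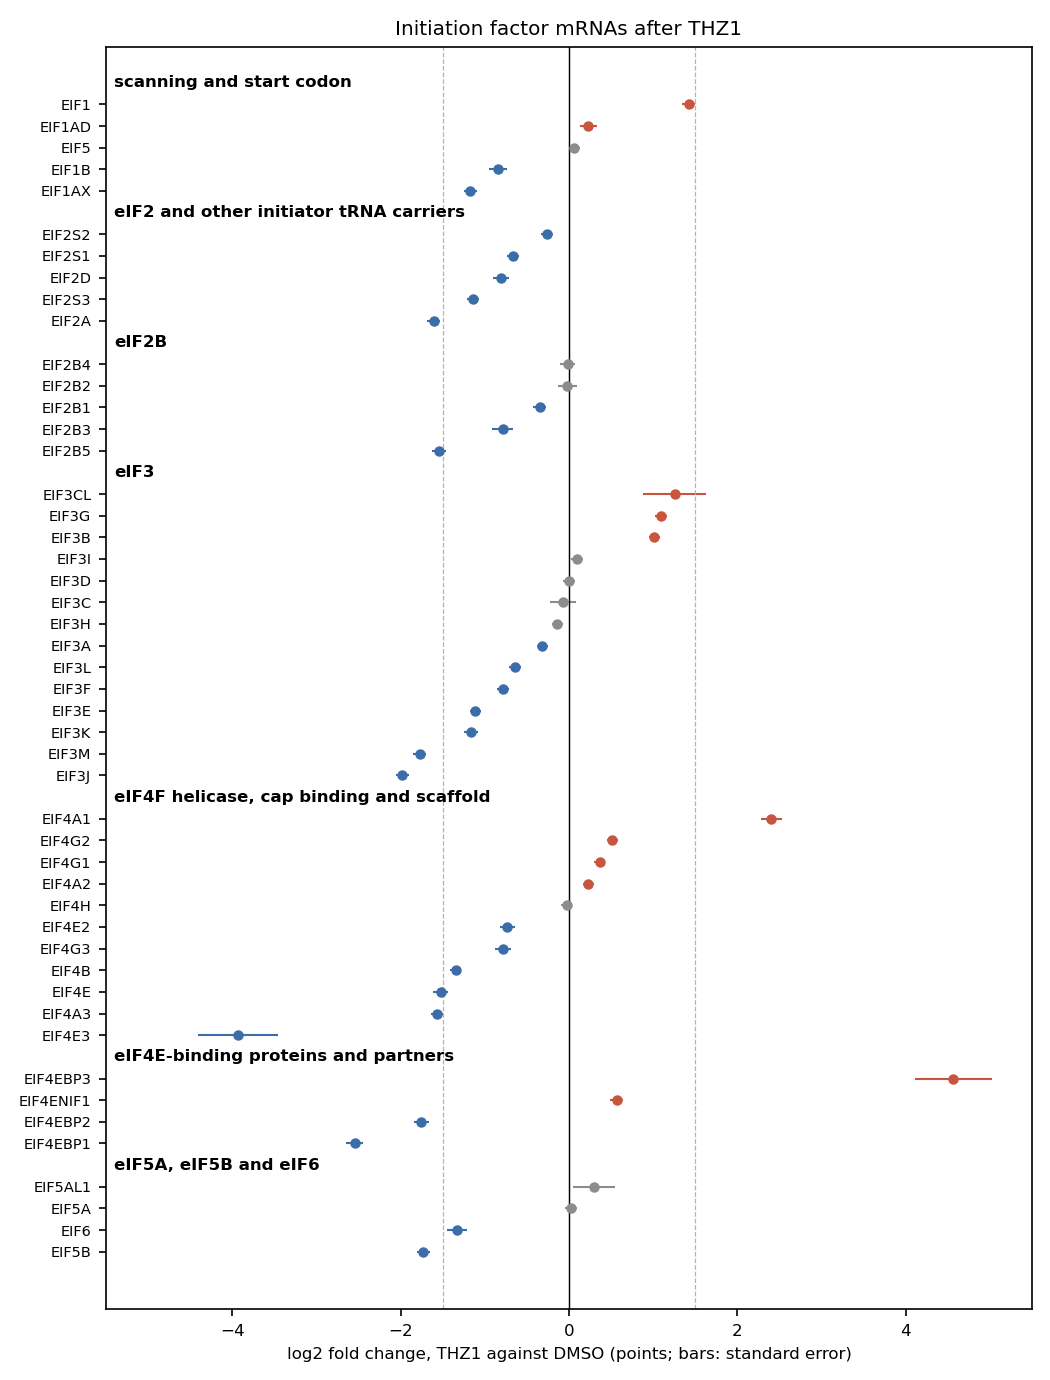
Log2 fold change (THZ1 over DMSO, x axis) of 48 initiation factors by role, with bars for the standard error, red for genes that rose, blue for those that fell, grey for those that did not pass an adjusted p of 0.05, and dashed lines at 1.5 log2 either way. The eIF2 and eIF2B genes have no member that rose. eIF4F and the 4E-binding proteins hold both the strongest rises, EIF4EBP3 and EIF4A1, and the strongest fall, EIF4E3. Of these, EIF4EBP3 and EIF4E3 passed the filter through 1 treatment. The EIF4A1 value is uncertain, as 100% of the 31-base words of its transcript also occur in other genes.

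Among the factors of scanning and start codon choice, 2 of 6 rose, 3 fell and 1 did not pass the test. Counts by role stand beside 41.1% lower and 43.5% higher among all genes tested, and 47.6% and 36.3% among protein-coding genes. The share lower was 50% here, 50% for eIF3 and 54.5% for eIF4F and its helpers, near that of protein-coding genes. EIF1 (chr17:39845137-39848920, GRCh37), which guards the accuracy of start codon selection, read 337, 314 and 387 CPM in the DMSO-treated libraries and 1004, 900.3 and 883 CPM in the THZ1-treated libraries. Every THZ1-treated library exceeded every DMSO-treated library, and EIF1 rose 2.68-fold (log2 fold change 1.42, SE 0.08, adjusted p = 2.3e-17). Its share of all counts on initiation factors went from 3.27%, 3.07% and 3.62% to 10.1%, 9.6% and 9.24%. Its close paralog EIF1B (chr3:40351198-40353915) moved the other way, from 39.9, 39.5 and 43.0 CPM to 24.6, 23.8 and 19.9 CPM, without overlap (log2 fold change -0.84, SE 0.11, adjusted p = 1.2e-08). Per length, EIF1 stood 4.65, 4.49 and 4.74 times above EIF1B with DMSO and 19.6, 18.9 and 21.8 times above it with THZ1, on the FPKM scale. The within-library log2 ratio of their counts was higher with THZ1 by 2.27, and the exact permutation p of 0.1 is the smallest that 3 libraries against 3 allow.

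EIF1AX (chrX:20142643-20159956), one of the genes of eIF1A, the partner of eIF1 on the small subunit, had the lowest fold change of this group for which values are given. It stood at 151, 164 and 155 CPM with DMSO and 71.9, 68.2 and 68.6 CPM with THZ1, so that the treatments lay far apart (log2 fold change -1.17, SE 0.07, adjusted p = 2.0e-15). EIF1AY was lower and is counted without its values. EIF5, the GTPase-activating partner of eIF2, gave 257, 279 and 247 CPM and 274, 271 and 273 CPM, with overlapping treatments (log2 fold change 0.06, adjusted p = 0.37). Its value passed the test with opposite signs at -0.18 with library sizes alone and 0.26 under upper quartile factors. EIF1AD, an eIF1A domain protein, had a small rise under TMM (log2 fold change 0.23, adjusted p = 0.0344) whose CPM ranges overlapped, which turned to -0.02 with library sizes alone, and which did not pass the test without DMSO replicate 1 (0.21), DMSO replicate 3 (0.13), THZ1 replicate 2 (0.23) or THZ1 replicate 3 (0.19).

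All 5 genes of eIF2 and of the other carriers of initiator tRNA fell, with a median log2 fold change of -0.81. The size of the fall varied over the 3 subunits of eIF2, and the difference between subunits was not tested. EIF2S3 (chrX:24073063-24096927), the gamma subunit that holds GTP and the tRNA and had the highest mean FPKM (a level per transcript length) of the group with DMSO, went from 310.2, 331 and 296 CPM to 147, 149.5 and 129 CPM, without overlap (log2 fold change -1.14, SE 0.07, adjusted p = 2.2e-15). EIF2S1, the alpha subunit that stress kinases phosphorylate, changed by -0.67 (SE 0.07, adjusted p = 8.1e-10). EIF2S2 (chr20:32676115-32700049), the beta subunit, read 175, 174 and 193 CPM with DMSO and 160.3, 142 and 149 CPM with THZ1. Those ranges lay next to each other, and its fall was the smallest of the group (log2 fold change -0.26, SE 0.07, adjusted p = 0.00142), with -0.07 under upper quartile factors, which did not pass the test. Of the 31-base words of the transcript, 35.5% in EIF2S3, 30.4% in EIF2S2 and 0.41% in EIF2S1 also occur in other genes.

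EIF2A (chr3:150264465-150303803), a single-chain protein that can deliver initiator tRNA apart from eIF2, fell most of these 5. Its libraries read 139, 145 and 145 CPM with DMSO and 46.2, 48.6 and 46.0 CPM with THZ1, tight within each treatment and far apart between them (log2 fold change -1.61, SE 0.08, adjusted p = 2.1e-18). EIF2D, which can also place tRNA on the small subunit, changed by -0.81 (SE 0.09, adjusted p = 2.4e-09).

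Of the 5 subunits of eIF2B, the exchange factor that returns eIF2 to its GTP form, 3 fell and 2 did not pass the test. The catalytic epsilon subunit EIF2B5 (chr3:183852826-183863915) fell most, from 129, 131 and 146 CPM to 44.4, 46.9 and 47.9 CPM, without overlap (log2 fold change -1.54, SE 0.08, adjusted p = 1.8e-17). EIF2B3, the gamma subunit that works beside it, changed by -0.79 (SE 0.12, adjusted p = 4.2e-07). EIF2B1, the alpha subunit of the regulatory core and the most abundant of the 5 per length, gave 120.5, 108 and 119 CPM and 100.5, 89.4 and 83.2 CPM, a smaller fall (log2 fold change -0.35, SE 0.08, adjusted p = 1.9e-04) that did not pass the test under upper quartile factors (-0.15). The other core subunits overlapped between treatments: EIF2B4 read 53.0, 47.0 and 53.3 CPM with DMSO and 46.8, 53.4 and 51.7 CPM with THZ1 (log2 fold change -0.01, adjusted p = 0.896), and EIF2B2 had a log2 fold change of -0.02 (adjusted p = 0.879). The difference between the catalytic and the core subunits was not tested.

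The kinases and phosphatase subunits that act on eIF2 alpha, 6 genes outside the initiation factors, split into 2 higher, 3 lower and 1 that did not pass the test. PPP1R15A, which directs the phosphatase PP1 to eIF2 alpha and is itself a stress-response gene, rose from 30.99 ± 3.23 to 172 ± 4.90 CPM (mean ± SD, n = 3, log2 fold change 2.47, SE 0.08, adjusted p = 2.0e-22). PPP1R15B, its constitutive counterpart, rose by 0.66 on the log2 scale (SE 0.07). EIF2AK2, the kinase activated by double-stranded RNA, had a log2 fold change of -1.86, EIF2AK1, the heme-regulated kinase, -1.33, and EIF2AK3, the kinase of the endoplasmic reticulum, -0.35. EIF2AK4, the kinase that senses uncharged tRNA, had a log2 fold change of -0.10 and did not pass the test.

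eIF3, the largest of the initiation factors, bridges the small subunit and eIF4F. Of its 14 genes 7 were lower, 3 higher (EIF3CL through the filter described above) and 4 did not pass the test, with a median log2 fold change of -0.23. The lowest value belonged to EIF3J (chr15:44829323-44855227), a loosely bound subunit that sits in the mRNA channel. It read 145, 136 and 141 CPM in the DMSO-treated libraries and 35.5, 34.7 and 36.9 CPM in the THZ1-treated libraries, with no library near the other treatment, and fell 3.94-fold (log2 fold change -1.98, SE 0.08, adjusted p = 2.7e-20). EIF3M (chr11:32605344-32627810), a subunit of the structural core, was lower in every THZ1-treated library (205, 207 and 241 against 67.2, 62.8 and 61.1 CPM, log2 fold change -1.77, SE 0.08, adjusted p = 2.7e-19).

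The structural core of eIF3 is an octamer of subunits with PCI and MPN folds (EIF3A, EIF3C, EIF3E, EIF3F, EIF3H, EIF3K, EIF3L and EIF3M), beside which stand EIF3D and the module of EIF3B, EIF3G and EIF3I. This division was drawn after the values had been seen and is given as a description. In the octamer 6 of 8 genes (75%) fell, against 41.1% of all genes tested and 47.6% of protein-coding genes, and none rose. The median log2 fold change was -0.71, with EIF3C, whose reads cannot be assigned with certainty, among the 8. Besides EIF3M, the falls were -1.16 for EIF3K, -1.11 for EIF3E, -0.78 for EIF3F, -0.64 for EIF3L and -0.31 for EIF3A. For EIF3A, the scaffold subunit, the value of -0.12 under upper quartile factors did not pass the test. The EIF3L value is uncertain: 63.8% of the 31-base words of its transcript also occur in other genes, and 41.1% of its exon bases are overlapped on the same strand. EIF3H, an MPN subunit, had a log2 fold change of -0.14 (adjusted p = 0.0689). It passed as lower when DMSO replicate 2 was left out (-0.21), with library sizes alone (-0.38), with no filter (-0.22) and in the deposited values (-0.29), but was 0.06 under upper quartile factors. In the EIF3B, EIF3G and EIF3I module 2 of 3 rose and the median was 1.02.

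EIF3G (chr19:10225690-10230594), an RNA-binding subunit needed for scanning, read 183, 168 and 205 CPM with DMSO and 412, 383 and 393 CPM with THZ1, and EIF3B (chr7:2393721-2420380), the platform on which EIF3G and EIF3I sit, read 427, 391 and 437 and 888, 796 and 855 CPM. Both were higher in every THZ1-treated library, with log2 fold changes of 1.09 (SE 0.07, adjusted p = 5.7e-15) and 1.02 (SE 0.07, adjusted p = 1.1e-14). EIF3I (chr1:32686678-32710998), a propeller-shaped subunit and the most abundant of eIF3 per length, gave 181, 181 and 212 CPM and 205, 196 and 212 CPM, with overlap (log2 fold change 0.09, adjusted p = 0.225). It passed without DMSO replicate 3 (0.15), and with opposite signs at -0.15 with library sizes alone and 0.29 under upper quartile factors. EIF3D, a subunit that can bind the cap of some mRNAs, had a log2 fold change of 0.00 (adjusted p = 0.994). It passed the test with opposite signs at -0.25 with library sizes alone and 0.19 under upper quartile factors.

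**Figure D3:**
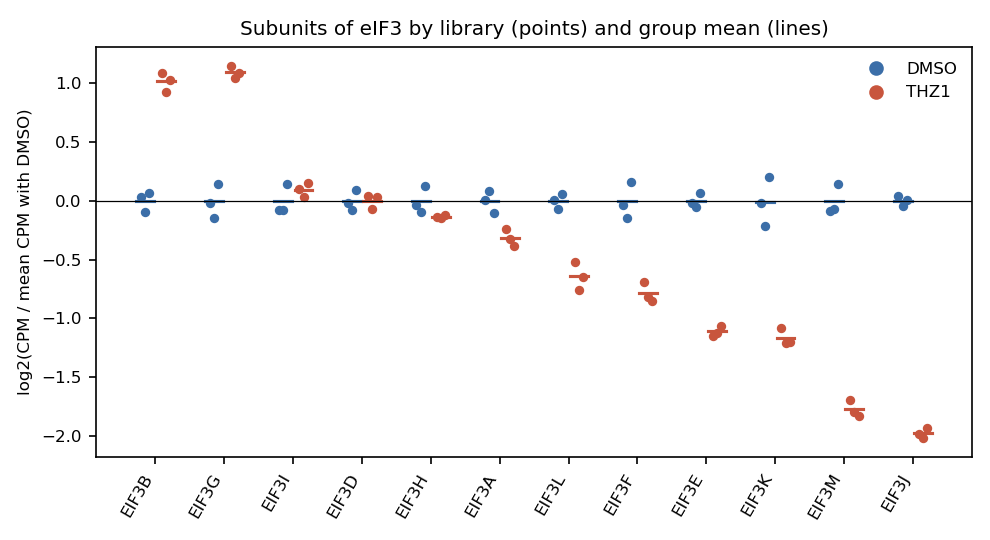
Log2 of the CPM of each eIF3 subunit over its mean with DMSO (y axis), with 1 point per library, lines for the treatment means, and EIF3C and EIF3CL left out. The THZ1 points (red) of EIF3B and EIF3G lie near 1, those of EIF3I and EIF3D overlap the DMSO points (blue), and those of EIF3M and EIF3J lie lowest.

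EIF3C and EIF3CL are near-identical copies on chromosome 16 (chr16:28699879-28747048 and chr16:28390900-28415162): 99.4% of the 31-base words of the EIF3C transcript also occur in another gene, and 99.3% of those of EIF3CL. Their reads cannot be assigned with certainty, and both values are uncertain. EIF3C read 18.3, 16.1 and 12.2 CPM with DMSO and 17.1, 12.9 and 14.3 CPM with THZ1 (log2 fold change -0.07, adjusted p = 0.661). EIF3CL had 14, 11 and 8 counts with DMSO and 19, 18 and 12 with THZ1 and passed the filter only through the THZ1-treated libraries, with a fitted log2 fold change of 1.26 that is no support for a rise. In the deposited expression values its difference was -0.34 on the log2 scale and that of EIF3C -0.64, so the sign of EIF3CL depended on the table used.

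Around the cap, 4 of 11 genes of eIF4F and its helpers were higher, 6 lower and 1 did not pass the test. EIF4E (chr4:99800427-99850284), the protein that grips the cap and the limiting factor of eIF4F in many cells, read 105, 98.5 and 105 CPM with DMSO and 33.0, 40.3 and 34.1 CPM with THZ1. No library of one treatment approached the other, and EIF4E fell 2.88-fold (log2 fold change -1.52, SE 0.09, adjusted p = 1.8e-16). EIF4E2 (chr2:233415369-233448354), a homolog that binds the cap without recruiting EIF4G1, fell less, from 65.7, 72.2 and 69.3 to 39.98, 46.1 and 38.9 CPM (log2 fold change -0.73, SE 0.09, adjusted p = 7.1e-09). On the FPKM scale EIF4E stood at 0.755, 0.636 and 0.722 of EIF4E2 with DMSO and at 0.311, 0.345 and 0.34 with THZ1, and the log2 ratio of their counts was lower by 0.80 on average (exact permutation p = 0.1, the smallest possible). EIF4E3 (chr3:71724565-71803924), another homolog, had 50, 52 and 53 counts with DMSO and 0, 5 and 1 with THZ1. Its summed counts were 16.0 times higher with DMSO after scaling (exact 95% interval 7.17 to 44.2, counting error only), and it passed the filter only through the DMSO-treated libraries. The fitted log2 fold change, -3.93, is therefore given as a description, and it was -5.79 without THZ1 replicate 2, the library with 5 of the 6 counts. EIF4E1B, a further homolog, is outside the expression table and was not a member, and it had 1, 0 and 0 counts with DMSO and 15, 16 and 10 with THZ1.

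Of the scaffold genes 2 rose and 1 fell. EIF4G1 (chr3:184032283-184053146), which ties EIF4E to the helicase and to eIF3, gave 569, 577 and 553 CPM with DMSO and 727, 725 and 736 CPM with THZ1, without overlap (log2 fold change 0.36, SE 0.06, adjusted p = 5.6e-06), but 0.12 on library sizes and 0.06 on the deposited values, neither past the test. Its paralog EIF4G3 (chr1:21132785-21503778) fell from 87.5, 89.8 and 73.2 to 45.8, 44.02 and 55.6 CPM (log2 fold change -0.78, SE 0.09, adjusted p = 5.9e-09). Within libraries, EIF4G1 went from 8.1, 8.27 and 8.56 times the FPKM of EIF4G3 to 18.1, 19.1 and 14.7 times, a difference of 1.15 in the log2 ratio of counts (exact permutation p = 0.1, the smallest possible). EIF4G2, a scaffold that lacks the EIF4E-binding site and serves cap-independent starts, read 959, 1012 and 909 CPM with DMSO and 1429, 1332 and 1355 CPM with THZ1, all higher (log2 fold change 0.51, SE 0.07, adjusted p = 2.9e-08).

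Among the helicase genes, 2 rose under TMM and 1 fell. EIF4A1 (chr17:7476142-7482324), annotated as the main RNA helicase of eIF4F, read 9.26, 11.5 and 10.5 CPM with DMSO and 64.3, 51.1 and 49.999 CPM with THZ1. All THZ1-treated libraries were several times above the DMSO-treated ones (log2 fold change 2.41, SE 0.12, adjusted p = 4.1e-18). This value is uncertain: 100% of the 31-base words of its transcript occur in other genes of the annotation, 47.4% of its exon bases are overlapped by genes on the same strand, among them the readthrough gene SENP3-EIF4A1 and the small nucleolar RNA genes SNORA48 and SNORD10, and at 6.33 ± 0.523 FPKM with DMSO it ranked 44th of 48 members per length. EIF4A2 (chr3:186500994-186507686), its paralog, read 474, 492 and 479.6 CPM and 570.4, 561 and 565 CPM, and its small rise under TMM (log2 fold change 0.23, SE 0.06, adjusted p = 0.00151) turned to -0.02 when library sizes were used and to -0.08 on the FPKM table. The log2 ratio of EIF4A1 to EIF4A2 counts was -5.68, -5.42 and -5.52 with DMSO and -3.15, -3.46 and -3.50 with THZ1, a difference of 2.17 (exact permutation p = 0.1). EIF4A3, a helicase of the exon junction complex, fell (log2 fold change -1.57, SE 0.08, adjusted p = 1.6e-18).

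Of the cofactors of the helicase, 1 fell and 1 did not pass the test. EIF4B (chr12:53400066-53435999), which stimulates EIF4A, was among the most abundant members with DMSO and fell in every THZ1-treated library (713, 722 and 716 against 297, 271 and 277 CPM, log2 fold change -1.35, SE 0.07, adjusted p = 4.1e-18), with 40.4% of its 31-base words shared, chiefly with the pseudogene EIF4BP6. EIF4H (chr7:73588561-73611452), a smaller protein with a related role and the highest mean FPKM of the group with DMSO, gave 406, 409.7 and 405 CPM and 421, 381 and 395 CPM, which overlapped (log2 fold change -0.03, adjusted p = 0.708). The value passed the test with opposite signs under other settings, at 0.17 under upper quartile factors, -0.27 with library sizes alone and -0.30 on the FPKM table.

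**Figure D4:**
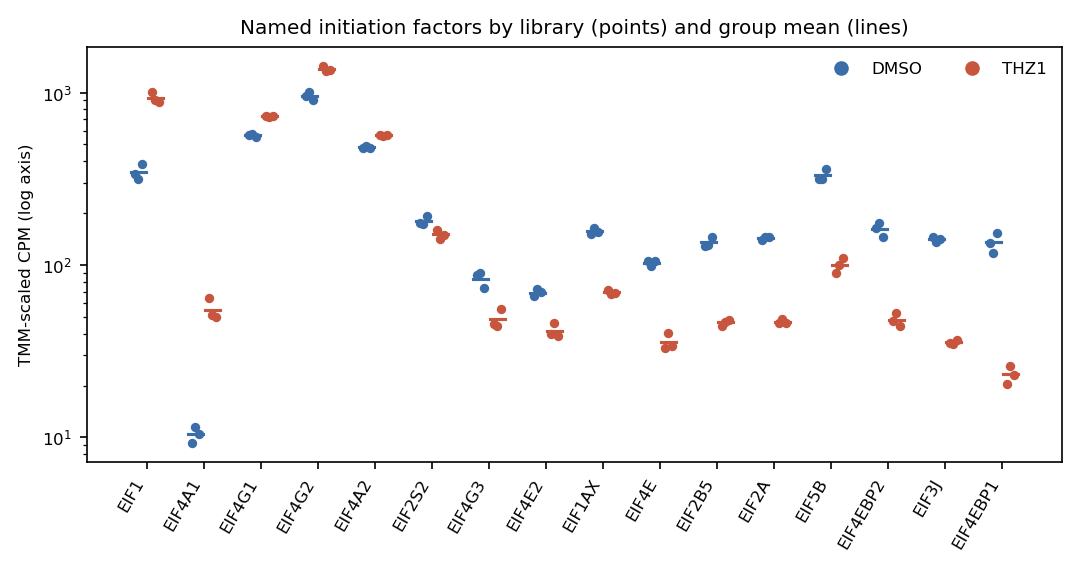
CPM in each library (log axis) of named members, with 1 point per library, lines for the treatment means, DMSO in blue and THZ1 in red. EIF1 and EIF4A1 lie higher with THZ1, EIF4E, EIF3J and EIF4EBP1 lie lower, and the points of EIF2S2 nearly touch.

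The E-box CACGTG, which MYC with MAX and other factors can bind, occurred in promoters of several eIF4F genes, and those of 3 genes with different results are shown: EIF4E and EIF4B, which fell, and EIF4G1, which rose under TMM. The sequences are from RefSeq (GRCh38.p14) and are read 5′ to 3′ on the strand of the gene, with CACGTG in capitals. EIF4E is given at chr4:98929174-98929373 on the minus strand (positions -240 to -41 from the start), EIF4G1 at chr3:184314446-184314565 on the plus strand (-160 to -41) and EIF4B at chr12:53006356-53006455 on the plus strand (-100 to -1).
EIF4E: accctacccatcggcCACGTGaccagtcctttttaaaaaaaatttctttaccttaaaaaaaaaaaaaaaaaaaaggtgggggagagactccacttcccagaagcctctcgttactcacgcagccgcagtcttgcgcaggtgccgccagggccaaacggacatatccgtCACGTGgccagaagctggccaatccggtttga
EIF4G1: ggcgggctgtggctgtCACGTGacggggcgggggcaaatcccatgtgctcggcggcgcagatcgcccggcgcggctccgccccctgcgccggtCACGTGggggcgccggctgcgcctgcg
EIF4B: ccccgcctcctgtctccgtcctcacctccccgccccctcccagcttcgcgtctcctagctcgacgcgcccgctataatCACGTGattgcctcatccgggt

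Both EIF4E and EIF4G1 hold CACGTG 2 times in these windows, at -225 and -72 and at -144 and -67, and EIF4B once. Of the 49 members 41 had a RefSeq promoter of 250 bases before to 50 after the start, and 10 of these (24.4%) held CACGTG, which reads the same on both strands, against 7.43% of 27305 promoters of all genes. They were EIF1B, EIF2B3, EIF3F, EIF3K, EIF4A3, EIF4B and EIF4E, which fell, EIF4EBP3 and EIF4G1, which were higher, and EIF4H. The letters were thus present in 7 of 23 lower members (30.4%), 2 of 9 higher members and 1 of 9 members that did not pass the test. Over protein-coding genes tested the shares were 10.9% of those lower, 9.53% of those higher and 9.74% of the rest. A match of letters describes the promoter and says nothing of what was bound in these cells.

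Of the 4 binding partners of EIF4E, 2 were higher and 2 lower. EIF4EBP1 (chr8:37888052-37917883), which blocks EIF4E when unphosphorylated, read 135, 118 and 153 CPM with DMSO and 20.5, 25.9 and 23.1 CPM with THZ1. It fell 5.83-fold (log2 fold change -2.54, SE 0.10, adjusted p = 1.7e-20), and per length it went from the 2nd to the 20th place among 48 members. EIF4EBP2 (chr10:72163901-72188374), its paralog, fell from 164, 176 and 145 to 47.2, 52.3 and 44.1 CPM (log2 fold change -1.75, SE 0.09, adjusted p = 2.9e-18). EIF4EBP1 kept the larger FPKM in every library, 7.5, 6.32 and 9.04 times that of EIF4EBP2 with DMSO and 3.81, 4.29 and 4.6 times with THZ1. The log2 ratio of their counts was lower by 0.79 with THZ1 (exact permutation p = 0.1, the smallest possible).

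EIF4EBP3 (chr5:139927247-139929161), the third 4E-BP, had 1, 3 and 2 counts with DMSO and 25, 28 and 41 with THZ1. Summed and scaled, its counts were 25.3 times higher with THZ1 (exact 95% interval 11.2 to 70.8, counting error only), a description, as it passed the filter only through the THZ1-treated libraries. As 72.4% of its 31-base words are shared, mainly with the readthrough gene ANKHD1-EIF4EBP3, these reads may belong to either gene. EIF4ENIF1 (chr22:31832963-31892094), which carries EIF4E into the nucleus and to P-bodies, rose from 45.4, 44.8 and 45.9 to 68.2, 65.6 and 67.5 CPM, without overlap (log2 fold change 0.56, SE 0.08, adjusted p = 2.4e-07).

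Genes that act on EIF4E and its partners from outside, a list of 21 with the poly(A)-binding proteins, the EIF4E kinases and mTORC1, had 20 members tested, of which 5 were higher, 10 lower and 5 did not pass the test (median log2 fold change -0.15). MKNK2, a kinase that phosphorylates EIF4E on the EIF4G scaffold, went from 149.9 ± 3.20 to 1634 ± 24.2 CPM (mean ± SD, n = 3, log2 fold change 3.45, SE 0.07, adjusted p = 7.8e-28), while its relative MKNK1 fell (-0.85, SE 0.12). AKT1S1, an inhibitory subunit of mTORC1, rose by 2.81 on the log2 scale and TSC2, an upstream inhibitor, by 0.77. MTOR, the kinase itself, had a log2 fold change of -0.52, RPS6KB1, one of its substrate kinases, -0.92, and the paralog RPS6KB2 1.07, all past the test. PDCD4, which inhibits EIF4A, fell (-0.93), as did LARP1, a cap-binding repressor of ribosomal protein mRNAs (-0.95), whereas DDX3X, a helicase that aids scanning, rose (1.29). PABPC1, the main poly(A)-binding protein, gave 0.12 (adjusted p = 0.0832). TSC1 (0.01), RPTOR (-0.04) and RHEB (0.04), also of the mTORC1 genes, did not pass the test either. The lowest value of the list was that of PAIP2B (-1.65).

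Of the 4 genes grouped as eIF5A, eIF5B and eIF6 (EIF5A, EIF5AL1, EIF5B and EIF6), 2 fell and 2 did not pass the test. EIF5B (chr2:99953834-100017789), the GTPase that joins the subunits, read 316, 315 and 362 CPM with DMSO and 89.6, 100.1 and 109.8 CPM with THZ1. The libraries of each treatment lay close together and far from the other treatment, and EIF5B fell 3.32-fold (log2 fold change -1.73, SE 0.08, adjusted p = 4.0e-19). EIF6, which keeps free large subunits from joining, fell too (-1.33, SE 0.12, adjusted p = 1.2e-11).

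EIF5A (chr17:7210318-7215782), a factor with the modified residue hypusine that helps ribosomes past difficult peptide bonds, read 672, 634 and 766 CPM with DMSO and 715, 678 and 712 CPM with THZ1. The treatments overlapped (log2 fold change 0.02, SE 0.07, adjusted p = 0.762). The value passed the test with opposite signs under other settings, at -0.22 with library sizes alone, -0.23 on the FPKM table and 0.22 under upper quartile factors. EIF5AL1 (chr10:81272289-81276196), an intronless copy, had 38, 41 and 50 counts with DMSO and 37, 24 and 37 with THZ1 (log2 fold change 0.30, adjusted p = 0.259, -0.64 in the deposited values). The coding sequences of the pair, each of 465 bases, differ at 5 places (98.92% identity), so reads from their shared stretches cannot be assigned. Bases 4 to 123 of each coding sequence (GRCh37, GENCODE 44) are shown to let the likeness be seen, with the 3 differing bases in capitals.
EIF5A: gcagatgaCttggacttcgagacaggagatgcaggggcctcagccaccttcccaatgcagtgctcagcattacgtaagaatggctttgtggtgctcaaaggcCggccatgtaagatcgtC
EIF5AL1: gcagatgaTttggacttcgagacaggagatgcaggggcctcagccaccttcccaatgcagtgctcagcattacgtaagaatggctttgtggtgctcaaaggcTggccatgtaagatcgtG

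EIF5A2, a further paralog, is outside the expression table and was not a member, having a single count in all 6 libraries. Both enzymes that make hypusine were higher with THZ1: DHPS, which carries out the first step, went from 97.2 ± 11.9 to 203 ± 10.3 CPM (mean ± SD, n = 3, log2 fold change 1.06, SE 0.08, adjusted p = 1.2e-13) and DOHH, the second, from 37.3 ± 2.62 to 86.4 ± 2.52 CPM (log2 fold change 1.21, SE 0.08, adjusted p = 2.1e-14). They were picked out after their values had been seen, from a list of 13 elongation genes of which 11 were tested, with 4 higher, 6 lower and 1 that did not pass. In that list EEF2, the translocation factor, rose (0.58, but 0.05 in the deposited values) and its inhibitory kinase EEF2K fell (-1.65). The EEF1 genes tested all fell: EEF1A1 (-0.45), EEF1B2 (-0.22), EEF1D (-0.64) and EEF1E1, the lowest of the list (-2.71).

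At the other end of translation, 6 of 7 termination and recycling genes tested, of 8 listed, fell and none rose, with a median log2 fold change of -1.22. GSPT1, the release factor eRF3, fell from 202 ± 3.33 to 37.8 ± 3.17 CPM (mean ± SD, n = 3, log2 fold change -2.42, SE 0.08, adjusted p = 1.4e-22), and its partner ETF1 had a log2 fold change of -1.22 (SE 0.08). ABCE1, which splits ribosomes for a new round, fell by 2.12 (SE 0.08), and PELO, a rescue factor, gave 0.01 (adjusted p = 0.946). The 3 genes of mitochondrial initiation all fell, with log2 fold changes of -1.51 for MTIF2, -0.37 for MTIF3 and -0.40 for MTFMT, the formyltransferase of the initiator tRNA. Over all 51 related genes, 47 were tested, of which 11 (23.4%) were higher and 28 (59.6%) lower (median -0.40). Beside these stand 43.5% higher and 41.1% lower among all genes tested, and 36.3% and 47.6% among protein-coding genes.

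Levels between genes were compared per length, in FPKM taken back from the log2 scale of the deposited table. Within a treatment the libraries of that table were made nearly alike: the 90th percentile was 75.6, 75.6 and 75.4 FPKM with DMSO and 77.0, 77.0 and 77.0 FPKM with THZ1, and 86 and 312 of 16730 genes had the same value in at least 2 libraries of DMSO and of THZ1. EIF5A was one of them, with an SD of 0.33% of its mean in FPKM and 9.83% in CPM with DMSO, so the FPKM SDs do not measure the spread between libraries and the order is given as a description. EIF5A had the highest mean in both treatments, at 749 ± 2.47 with DMSO and 638 ± 6.81 with THZ1 (mean ± SD, n = 3), and was first in 3 of 3 DMSO-treated and 2 of 3 THZ1-treated libraries. With DMSO the next were EIF4EBP1 (457 ± 24.3), EIF4H (377 ± 34.4), EIF4B (344 ± 27.2), EIF4G2 (335 ± 38.9), EIF3I (324 ± 10.4) and EIF1 (281 ± 12.3). EIF4B, EIF4G2 and EIF3I changed places between DMSO-treated libraries, while EIF4EBP1, EIF4H and EIF1 held theirs. With THZ1 EIF1 took the 2nd place (628 ± 33.3) and was first in 1 library, ahead of EIF4G2 (393 ± 13.4) and EIF4H (305 ± 9.42), while EIF4B went from the 4th to the 14th place (116 ± 4.57) and EIF4EBP1 to the 20th (67.6 ± 7.66). EIF4E stood low in both, 40th at 20.7 ± 0.961 and 44th at 5.28 ± 0.720.

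**Figure D5:**
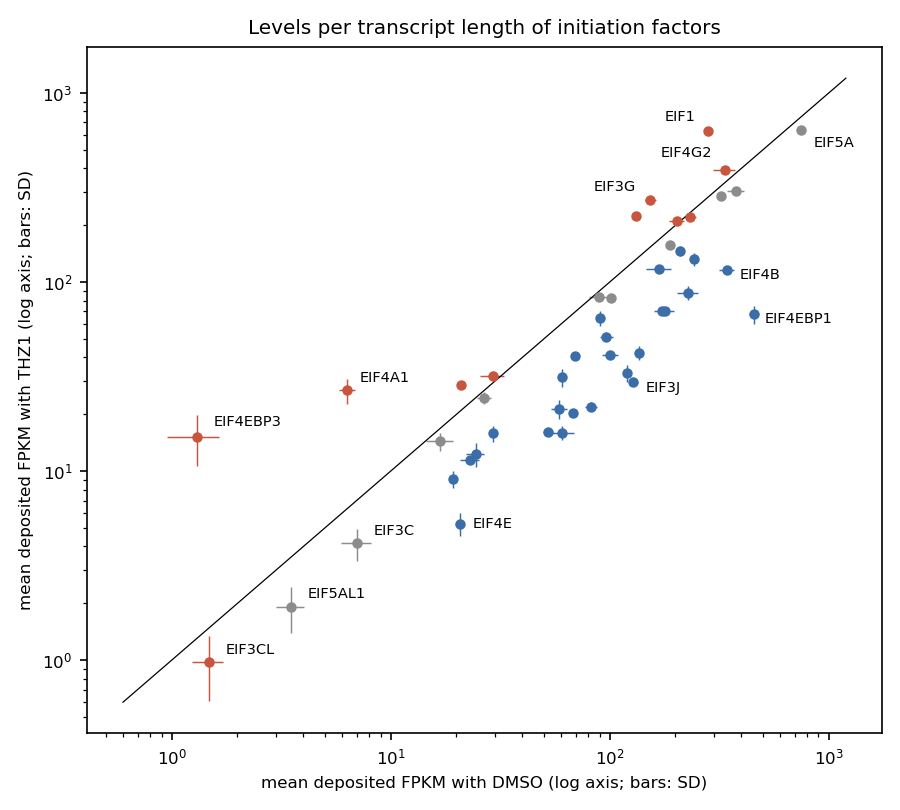
Mean FPKM of initiation factors with DMSO (x axis) against THZ1 (y axis), both on log scales, with bars for the SD and the line of equal level. Red, blue and grey mark genes that rose, fell or did not pass the count test. Of the 48 members with values, EIF4E3 (0.035 FPKM with THZ1) is not drawn. EIF5A lies near the line at the top, EIF1 and EIF4A1 lie above it, and EIF4EBP1, EIF4B and EIF4E lie below it.

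Gene length moved with the fold change among the members as among other genes. Spearman's rho of the gene span with the log2 fold change was -0.41 over the 49 members and -0.34 over 11929 protein-coding genes, across genes that share the same 6 libraries and are not independent replicates. The part of gene length in the results was not tested. The shortest spans were those of EIF4EBP3 (1915 bases) and EIF1B (2718 bases), which moved in opposite directions, and EIF1 (3784 bases), and the longest those of EIF4G3 (370994 bases) and EIF3E (280710 bases), both of which fell. The level with DMSO had a rho of -0.02 with the fold change over the members and -0.33 over 10857 protein-coding genes. In all, 6 members had at least 50% of their 31-base words in other genes, 11 had an exon overlapped by another gene on the same strand and 24 on the opposite strand, and as the strand setting of the counting is not given in the sources used here, reads of such neighbours may be included.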

How the data were processed

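RNA-SEQ libraries of NALM6 cells, 3 with DMSO and 3 with 500 nM THZ1 for 24 h, were grouped by their labels. The authors deposited raw read counts per gene for 57905 genes and a table of 16730 genes with log2(FPKM + 1) values, and the deposited p-values, log2 fold changes and FDR of that table hold the authors' own comparison and were not used. Reads were aligned with STAR 2.7.3a per the methods, and the submitters' processing notes name cutadapt, HTSeq, RSEM and GRCh37. The annotation, the strand setting and any step after FPKM are not given in the sources used here. Libraries of 1 treatment have nearly the same distribution in that table, so its SDs understate the spread between libraries. The log2 values of a library are not independent of its counts, and FPKM per CPM varied over libraries by a median of 16.6% for 45 members.

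The fit used edgeR 4.0.16 (R 4.3.3): filterByExpr with a minimum count of 10 and total of 15, TMM factors, treatment as the only term, the quasi-likelihood test, two-sided, with Benjamini-Hochberg adjustment over all 16622 genes that passed. CPM were computed with TMM library sizes. A count of 3, taken as the floor, was worth 0.246 to 0.253 CPM with DMSO and 0.394 to 0.415 CPM with THZ1, and intervals cover counting error only. The scripts were tested on simulated data. Replicates of each treatment differed by more than sampling noise, and none was counted as a duplicate.

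The members and gene lists were chosen with earlier results of these data known. Values in every library were given for the highest and lowest member of each role group, the most abundant by mean FPKM, and paralog pairs, of which EIF5A with EIF5A2 could not be formed. Other members and list genes were named after their values were seen. EIF1AY was counted without values. Shared 31-base words and overlaps were computed on GENCODE 44 mapped to GRCh37, and promoters were taken from RefSeq (GRCh38.p14). Alternatives were DESeq2 1.42.0, limma 3.58.1 on the deposited log2 values, other scalings, filters, pseudocounts and fold thresholds, a replicate block, and leaving out each library. The counts without the 3 members that passed the filter through 1 treatment were added after the data were seen.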

Additional observations from a re-analysis of the deposited data

How the results depend on the processing

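Of 764 comparisons of a member under an alternative with its reported value, 667 kept their direction and side of the threshold, 17 lost and 24 gained the call, 25 reversed with 1 value past the test or both, and 31 changed sign with neither value past it. The number of members higher, 11 as reported, was 7 with limma on the deposited values at a pseudocount of 1 or 0.1 or a mean FPKM of at least 1. The number lower by at least 1.5 log2, 11 as reported, was 7 with DESeq2 and with its size factors (RLE) in edgeR, 6 with upper quartile factors, 5 when every library had to hold at least 10 counts, and 17 at a threshold of 1 log2, where 6 members were higher in place of 2.

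The median log2 fold change, -0.64 as reported, was -0.57 with DESeq2 and with RLE factors, -0.52 when 10 counts were required of every library, -0.44 with upper quartile factors, -0.89 with library sizes alone, -0.72 without a filter, and -0.76, -0.87 and -0.70 with limma at a pseudocount of 1, of 0.1 and with a mean FPKM of at least 1. Leaving out 1 library gave medians of -0.69 to -0.59, 10 to 11 members higher, 28 to 29 lower, 10 to 11 lower by at least 1.5 log2 and 2 higher by as much.

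With library sizes alone the sign reversed for EIF1AD (-0.018), EIF3D (-0.25), EIF3I (-0.15), EIF4A2 (-0.017), EIF5 (-0.18) and EIF5A (-0.22), and with upper quartile factors for EIF4H (0.167), and, not past the test on either side, for EIF2B2 (0.175), EIF2B4 (0.181), EIF3C (0.121) and EIF3H (0.057). In the deposited values at a pseudocount of 1, with or without the mean FPKM minimum, it reversed for EIF3CL (-0.34), EIF3D (-0.25), EIF3I (-0.19), EIF4A2 (-0.084), EIF5A (-0.23) and EIF5AL1 (-0.64), and at 0.1 for the same genes (EIF3CL -0.61, EIF3D -0.25, EIF3I -0.19, EIF4A2 -0.084, EIF5A -0.23 and EIF5AL1 -0.87), and, not past the test, for EIF5 (-0.10 in each). The causes were not tested.

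Replicate numbers are shared between treatments, and deviations of same-numbered libraries correlated by -0.004, 0.00097 and 0.021. These values show no common deviation, but cannot tell whether same-numbered libraries shared a culture or a day, which the labels do not say. With a replicate block 11 members were higher and 28 lower, 11 of them by at least 1.5 log2, and the median was -0.64. At this depth members with few counts (EIF4E3, EIF4EBP3, EIF3CL and EIF5AL1) have wide errors, 3 libraries per treatment cannot take an exact permutation test below 0.1, and reads of near-identical genes cannot be assigned.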
